A study of Mus musculus with 11 samples.

Results

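The H3K27ac regions of a mouse pre-T cell line that cover a transcription start site (TSS) and also overlap an RBPJ site were examined for their response to 2 inhibitors. Members were the rows of the authors' deposited table with an RBPJ overlap mark of 1 and a distance to the nearest TSS of 0. They are called RBPJ-overlapping promoters below. The RBPJ site can lie anywhere in such a region, so in a wide region it need not be at the TSS. There were 947 such regions among 56342 in all (1.68%), and they carried 946 gene symbols because Gtf2a1 had 2 regions. RBPJ overlapped 12.0% of the 7889 promoter regions and 1.22% of regions off a TSS, and of the 1538 RBPJ-overlapping regions 61.6% covered a TSS. The nearest transcript was coding for 900 members and noncoding for 47.

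Chromatin of Beko cells was profiled by chromatin immunoprecipitation and sequencing after 24 h with apicidin at 0.01 mg/ml (2 H3K27ac libraries), after 24 h with the gamma-secretase inhibitor DAPT, here called GSI, at 10 mg/ml (2 libraries), or after 24 h with DMSO, the solvent control (2 libraries); the doses are as labelled. RBPJ was profiled in DMSO cells only (2 libraries), so its binding under either inhibitor was not measured here. All groups are of 1 cell line, with no allele or transgene named in the labels. Whether replicate libraries stem from separate cultures is not stated in the labels, so the p-values cover no more than the spread between the libraries at hand, which could be technical.

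RBPJ, also called CSL, is the DNA-binding protein of the Notch pathway. Ligand binding leads gamma-secretase to cut the Notch receptor, and the freed intracellular domain enters the nucleus, binds RBPJ and recruits Mastermind and histone acetyltransferases. Without that domain RBPJ can bind corepressors such as SPEN, which bring histone deacetylases, among them HDAC3 in the NCoR complex. Acetylation of histone H3 at lysine 27 (H3K27ac) marks active promoters and enhancers. Notch signalling drives early T-cell development and many T-cell leukaemias. Apicidin inhibits histone deacetylases, and the labels name HDAC3 as its target.

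The letters GTGGGAA, a form of the classical RBPJ site, were searched on both strands (the other strand reads TTCCCAC). So was the shorter core TGGGAA. The search used RefSeq promoter windows of build GRCm38.p6, each reaching from 250 bases before to 50 bases after a gene's start. The deposited regions are in build mm9, so windows were joined to members by transcript accession or symbol and not by position. A window was found for 757 members (79.9%), which is under 80%, so the comparison of sequence properties over the members is void and the shares below only describe the genes matched. GTGGGAA occurred in 99 of the 756 member genes matched (13.1%), in 340 of 5488 genes with a promoter region without RBPJ (6.20%), and in 1958 of all 27025 windows (7.25%). Among genes whose member region fell with GSI (adjusted p under 0.05) it occurred in 8 of 41 (19.5%), among those that rose in 4 of 34 (11.8%), and among those not called in 85 of 673 (12.6%). The windows also differed in base composition, with a median GC content of 65.3% for member genes, 60.7% for promoters without RBPJ and 52.8% for all windows, and its part in these shares was not tested.

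The sequences shown are those of 7 of the 8 GSI-lowered genes with a match, so the set is not complete. In these 7 the match lies before the start. Sequences of the 4 genes with a match whose member rose with GSI are not printed. The printed sequences were picked for a measured loss of acetylation at the gene's member region. They need not lie in that region, because windows were not joined by position. Each is written 5′ to 3′ on the gene's own strand, with GTGGGAA or its other strand TTCCCAC in capitals and up to 30 bases on either side. They come from RefSeq, build GRCm38.p6.
AW011738, chr4:156203176-156203242, plus strand: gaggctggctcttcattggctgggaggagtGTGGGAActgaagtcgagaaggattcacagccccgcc
Rag1, chr2:101649549-101649615, minus strand: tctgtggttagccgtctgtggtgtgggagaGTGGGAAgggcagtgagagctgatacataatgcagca
Tha1, chr11:117873626-117873692, minus strand: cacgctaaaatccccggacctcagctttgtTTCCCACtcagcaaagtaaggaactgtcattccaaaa
Tfam, chr10:71238045-71238107, minus strand: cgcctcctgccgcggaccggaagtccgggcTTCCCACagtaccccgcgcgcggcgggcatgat
Socs1, chr16:10785670-10785736, minus strand: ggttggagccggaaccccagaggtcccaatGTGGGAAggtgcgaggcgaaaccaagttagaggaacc
Zfpm1, chr8:122281971-122282072, plus strand: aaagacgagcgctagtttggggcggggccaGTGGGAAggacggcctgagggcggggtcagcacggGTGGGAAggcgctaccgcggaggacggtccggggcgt
Chd9, chr8:90828697-90828763, plus strand: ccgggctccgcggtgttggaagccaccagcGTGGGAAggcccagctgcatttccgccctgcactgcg

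The capitals began 33 bases before the start in Tfam, 53 in Rag1, 78 in AW011738, 108 in Chd9, 136 in Tha1 and 170 in Socs1. Zfpm1 held a pair of matches in the same orientation, starting 140 and 105 bases before its start, 35 bases apart. Among members that rose with GSI, Lig4, Thrap3, Cs and Coq10b had a match before the start. A match describes letters in a window and is not a mapped binding site. The Notch1 and Notch3 windows held no GTGGGAA, and Hes1, Heyl, Hey1 and Myc had no window among those matched, so they are in none of these shares.

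The deposited table gives no value per library. For each region it holds a base mean, which is the mean normalised read count over libraries, and for each inhibitor a log2 fold change with its standard error (SE), taken to be against DMSO, the only control in the labels. A region was called higher or lower where the authors' DESeq2 adjusted p was under 0.05. Members were wider and more acetylated than other regions: their median width was 2150 bp and their median base mean 591, against 1900 bp and 455 for the 6942 promoter regions without RBPJ and 620 bp and 61.3 for all regions. Base means of members ran from 34.8 to 14330. Read count per kilobase differed less, with medians of 271 for members and 232 for promoters without RBPJ. T-lineage identity was checked on 43 promoter regions of T-cell genes, whose median base mean was 2744. Lists of B-lineage, myeloid, erythroid, and fibroblast and epithelial markers had 2 promoter regions between them, Igll1 (base mean 70.1) and Pdgfrb (base mean 637).

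With apicidin, acetylation at RBPJ-overlapping promoters went down far more often than up. Of the 947 members 402 were lower (42.4%), against a background of 14.1 percent of all regions, and 70 were higher (7.39%), against 9.69 percent, by the calls of the authors' deposited table. The other 475 were not called. Promoter regions without RBPJ gave similar shares in the deposited table, with 38.9 percent lower and 8.1 percent higher. The median log2 fold change was -0.23 for members, -0.24 for promoters without RBPJ and 0.00 for all regions in the authors' deposited table. Most changes were small: the lower members had a median of -0.47, the higher ones 0.38, and 7 called members changed by 1 log2 unit or more, 2 up and 5 down. Of the called members 14.8% were higher, and this share was 26.8% with fold changes centred on the more strongly acetylated regions and 31.8% with the trend over base mean subtracted, so the size of the excess of losses depends on the scaling. Shares of different classes of regions are set side by side here as descriptions, with no test between classes.

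With GSI, few RBPJ-overlapping promoters changed. Of 937 tested members 55 were lower (5.87%), against a background of 7.17 percent, and 39 were higher (4.16%), against 6.62 percent, by the calls of the authors' deposited table. The other 843 tested members were not called, and 10 members of low base mean had no adjusted p. Among promoter regions without RBPJ the deposited table had 4.15 percent lower and 5.4 percent higher. The members' median log2 fold change was -0.02, with quartiles of -0.15 and 0.09. Losses were larger than gains: the called lower members had a median of -0.46 with 5 beyond 1 log2 unit, while the called higher ones had a median of 0.31 and none reached 1. RBPJ-overlapping regions away from a TSS had 99 of 523 lower with GSI (18.9%) in the authors' deposited table.

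**Figure D1:**
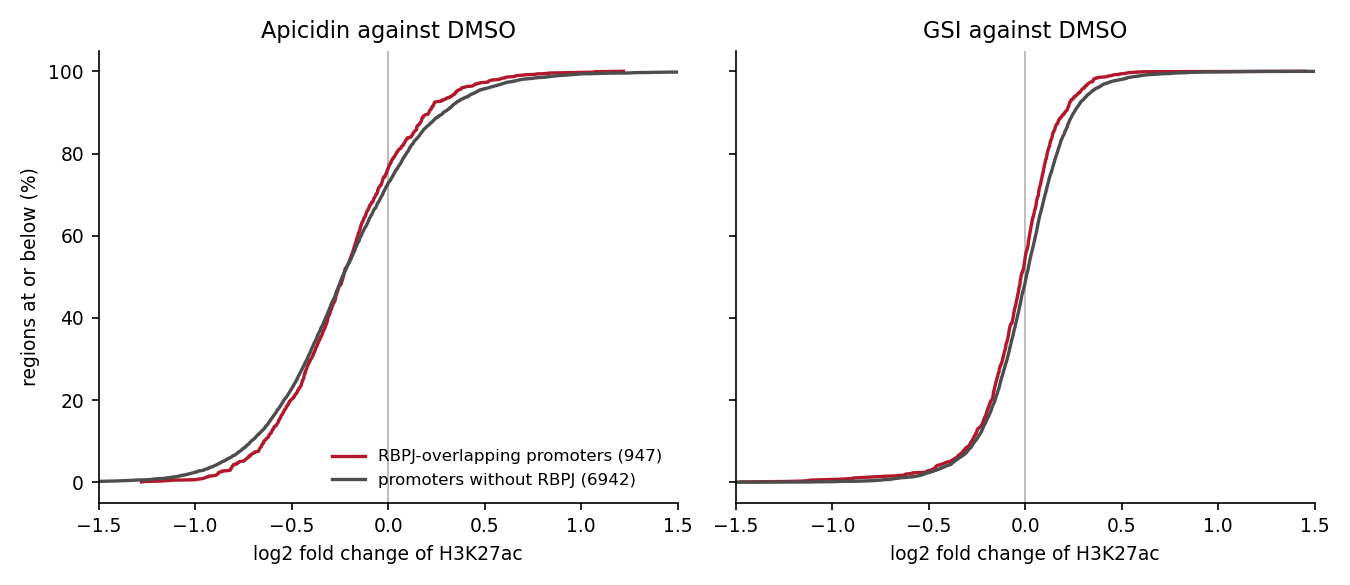
Cumulative share of regions (vertical axis, %) at or below each log2 fold change of H3K27ac (horizontal axis) for 947 RBPJ-overlapping promoters (red) and 6942 promoters without RBPJ (grey), under apicidin (left) and GSI (right), both against DMSO. Both classes lie left of 0 under apicidin, with medians of -0.23 and -0.24, and close to 0 under GSI, with medians of -0.02 and 0.01; values beyond 1.5 in either direction lie outside the axis.

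Most Notch target genes whose TSS-covering region overlapped RBPJ lost acetylation over that region with GSI. Of 28 promoter regions on that list 9 overlapped RBPJ, of which 7 were lower with GSI, none was higher and 2 were not called in the authors' deposited table, their median log2 fold change being -0.77. The same 9 had 7 lower and 2 not called with apicidin and a median of -0.30 in the deposited table; 5 were lower and 1 higher under both rescalings of the fold changes. The 19 promoters on the list without RBPJ had 6 lower and 1 higher with GSI, and 3 lower and 8 higher with apicidin. The list was chosen with results of these data known and is not independent evidence of its direction.

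Hes1 and its relatives Heyl and Hey1 encode transcriptional repressors that are direct outputs of Notch. For Hes1 (chr16:30065308-30067169, base mean 302) the authors' deposited table gave a log2 fold change of -0.61 ± 0.14 (SE, adjusted p = 1.48e-04) with apicidin and -1.24 ± 0.15 (adjusted p = 7.73e-14) with GSI. Heyl (chr4:122909991-122911621, base mean 225) had -1.18 ± 0.17 (adjusted p = 5.10e-10) with apicidin and -0.89 ± 0.18 (adjusted p = 2.25e-05) with GSI, again from the authors' deposited table. Hey1 (chr3:8662984-8671070, base mean 1830) fell less, by 0.27 with apicidin (adjusted p = 7.58e-04) and by 0.48 with GSI (adjusted p = 1.85e-09) on the log2 scale of the authors' deposited table, and its apicidin call was lost under both rescalings. Hes1 was thus lower with GSI than with apicidin, a difference of 0.63 ± 0.21 (apicidin minus GSI, adjusted p = 0.0295), whereas for Heyl the difference of -0.29 ± 0.25 did not pass (adjusted p = 0.692).

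The receptor genes Notch1 and Notch3, which lie on their own pathway's target list, were covered by wide regions. The Notch1 region (chr2:26336543-26377124) was the widest member at 40582 bp and had a base mean of 12722. Its log2 fold change in the authors' deposited table was -0.30 ± 0.05 (adjusted p = 3.04e-08) with apicidin and -0.77 ± 0.05 (adjusted p = 1.52e-50) with GSI. For Notch3 (chr17:32297474-32309241) the authors' deposited table gave -0.36 ± 0.07 (adjusted p = 1.59e-06) with apicidin and -0.93 ± 0.07 (adjusted p = 2.15e-37) with GSI. Both lost more acetylation with GSI than with apicidin, by 0.47 ± 0.07 for Notch1 (adjusted p = 3.13e-09) and 0.57 ± 0.10 for Notch3 (adjusted p = 5.42e-07).

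Myc, the growth-promoting transcription factor that Notch activates in T-cell leukaemia, had -0.26 ± 0.06 with apicidin (adjusted p = 2.55e-04) and -0.40 ± 0.06 with GSI (adjusted p = 1.19e-08) in the authors' deposited table. Rag1, a subunit of the recombinase that assembles antigen receptor genes, had -0.31 ± 0.10 with apicidin (adjusted p = 0.00906) and -1.12 ± 0.11 with GSI (adjusted p = 1.06e-22) in the authors' deposited table. Its apicidin call was lost under both rescalings, and the difference between the inhibitors was 0.81 ± 0.15 (adjusted p = 2.72e-06). The remaining members of the list were not called in the authors' deposited table: Ccnd3, a G1 cyclin, had 0.09 ± 0.06 with apicidin and -0.08 ± 0.06 with GSI, and Rbpj itself had -0.15 ± 0.10 and -0.11 ± 0.10. Under both rescalings Ccnd3 passed as higher with apicidin.

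**Figure D2:**
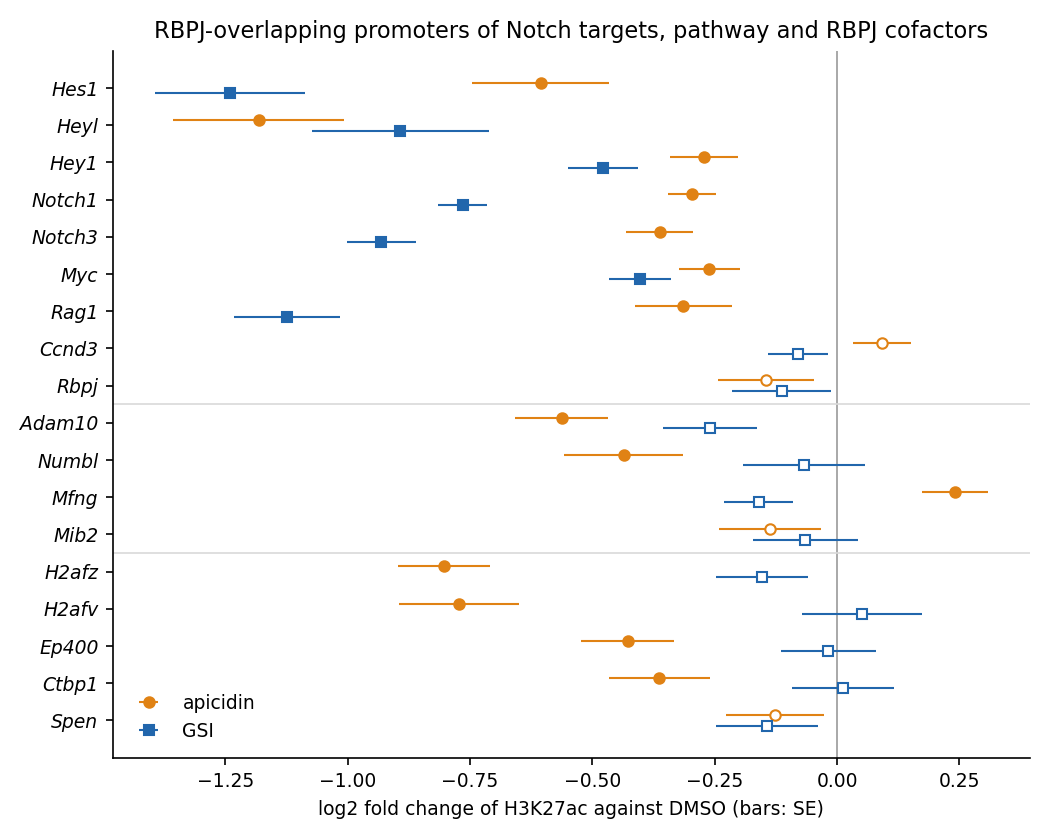
Log2 fold change of H3K27ac against DMSO (horizontal axis, bars are SE) at RBPJ-overlapping promoters of Notch target genes (top block), other Notch pathway genes (middle) and the RBPJ cofactor list (bottom). The bottom block includes the H2A.Z genes H2afz and H2afv. Apicidin is shown as orange circles and GSI as blue squares, and filled symbols have an adjusted p under 0.05. Notch1, Notch3, Hes1 and Rag1 lie further left with GSI than with apicidin, and no GSI symbol below Rbpj is filled.

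Other genes of the Notch pathway did not move as a block. Besides Notch1 and Notch3, the pathway list held Adam10, Numbl, Mfng and Mib2 among its 6 members of 21 promoter regions. Adam10, the protease that makes the first cut of the activated receptor, had -0.56 ± 0.09 with apicidin (adjusted p = 6.54e-08) and -0.26 ± 0.10 with GSI (adjusted p = 0.0522) in the authors' deposited table. Mfng, a glycosyltransferase that modifies Notch receptors, rose by 0.24 ± 0.07 with apicidin (adjusted p = 0.00268) and had -0.16 ± 0.07 with GSI (adjusted p = 0.119) in the authors' deposited table. Numbl, related to the Notch antagonist Numb, fell by 0.44 with apicidin (adjusted p = 0.00244) in the authors' deposited table, a call lost with the trend over base mean subtracted, and had -0.07 ± 0.12 with GSI. Mib2, a ubiquitin ligase for Notch ligands, was called with neither inhibitor.

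Of the 6 RBPJ-overlapping promoters on the RBPJ cofactor list 4 fell with apicidin, while none was called with GSI. The list names coactivators and corepressors, and it also holds Rbpj itself and the H2A.Z genes H2afz and H2afv. Of its 24 promoter regions 6 were members, Rbpj among them. The authors' deposited table had 4 lower with apicidin (median log2 fold change -0.40), beside 402 of all 947 members and 14.1 percent of all regions. By the authors' DESeq2 test 0 were called with GSI (median -0.07), with 0 of them at an unadjusted p under 0.05. With GSI few of all 937 tested members were called, 55 lower and 39 higher, beside 7.17 percent lower and 6.62 percent higher of all regions. H2afz, which encodes the histone variant H2A.Z, fell by 0.80 (SE 0.09, adjusted p = 8.40e-16) and H2afv, encoding its second form, by 0.77 (SE 0.12, adjusted p = 7.69e-09) with apicidin in the authors' deposited table. Ep400, the ATPase of a complex that exchanges H2A.Z and acetylates histones, fell by 0.43 (adjusted p = 7.73e-05) and the corepressor Ctbp1 by 0.36 (adjusted p = 0.00290) with apicidin in the authors' deposited table; the Ctbp1 call was lost with the trend over base mean subtracted. Under the authors' scaling H2afz, H2afv and Ep400 were lower with apicidin than with GSI, by differences of -0.65 ± 0.13 (adjusted p = 4.90e-05), -0.82 ± 0.17 (adjusted p = 8.74e-05) and -0.41 ± 0.14 (adjusted p = 0.0320). With the trend over base mean subtracted Ep400 had -0.27 with apicidin and -0.02 with GSI, a smaller difference. Whether it still passes is not shown here. The corepressor Spen was not called in the authors' deposited table, with -0.13 ± 0.10 for apicidin and -0.14 ± 0.10 for GSI. The 18 promoters on the list without RBPJ had 12 lower and 1 higher with apicidin, and 1 lower and 1 higher with GSI.

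Acetyltransferase and bromodomain genes had 4 members among 29 promoter regions (13.8%), beside 12% of all promoter regions with RBPJ. The list of deacetylases and NCoR-type complexes had 5 of 29 (17.2%). Hdac7, a class IIa deacetylase abundant in thymocytes, had a member region of 30183 bp and base mean 14106, and in the authors' deposited table it rose by 0.21 ± 0.05 with apicidin (adjusted p = 9.58e-05) while falling by 0.14 with GSI (SE 0.05, adjusted p = 0.0247). Of the other 4 members on that list, Rbbp7, a histone-binding subunit of deacetylase complexes, fell by 0.50 with apicidin in the authors' deposited table (adjusted p = 0.00113), and Rbbp4, Sin3a and Mbd2 were called with neither inhibitor. Among acetyltransferase and bromodomain genes, Brpf1, Trim24 and Kat6a were lower with apicidin and Hat1 was not called; only the Brpf1 call, which the authors' deposited table gives with -0.42 ± 0.08 (adjusted p = 6.05e-06), held under both rescalings. None of these 4 was called with GSI by the authors' DESeq2 test, and 1 was lower at an unadjusted p under 0.05.

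Of the T-lineage genes, most RBPJ-overlapping promoters fell with apicidin under the authors' scaling, though not after rescaling. Most of the called promoters without RBPJ rose. Of 7 members on the list the authors' deposited table had 5 lower and 1 higher with apicidin (median log2 fold change -0.18), against 5 lower and 18 higher of the 36 promoters without RBPJ (median 0.21). Of all 947 members 402 were lower and 70 higher (median -0.23), beside 14.1 percent lower and 9.69 percent higher of all regions. Notch1 and Rag1, among the 5 lower on this list, are also on the Notch target list. After either rescaling 1 member was lower and 1 higher, since the calls of Rag1, Gfi1, Tcf12 and Tcf3 were lost. Thy1, a surface glycoprotein of thymocytes, was the member that rose, by 0.52 ± 0.06 with apicidin (adjusted p = 4.29e-19), and it had -0.04 ± 0.06 with GSI (adjusted p = 0.739) in the authors' deposited table. Gfi1, a repressor needed in early thymocytes, had -0.19 ± 0.05 with apicidin (adjusted p = 0.00202) and -0.16 ± 0.05 with GSI (adjusted p = 0.0170) in the authors' deposited table. Lck, the kinase that starts T-cell receptor signalling, was called with neither.

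The members that lost most acetylation with apicidin, among those of at least median base mean, were on none of the Notch lists. The Notch target Heyl, of lower base mean (225), lost more than each of them, at -1.18 ± 0.17. Dip2b, a disco-interacting protein, fell by 1.00 (SE 0.09, adjusted p = 5.27e-27) with apicidin and had 0.17 ± 0.09 with GSI in the authors' deposited table. AW011738, a noncoding transcript, fell with both, by 0.97 with apicidin (adjusted p = 1.09e-30) and by 1.15 with GSI (adjusted p = 1.46e-39) in the authors' deposited table. Dhrsx, Zfx, Nadkd1, Plk4 and Dyrk1a had -0.95 to -0.89 in the authors' deposited table, and none of these 5 was called with GSI. Zfx is an X-linked zinc finger transcription factor, Plk4 the kinase of centriole duplication and Dyrk1a a kinase of cell-cycle exit.

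Among members of at least median base mean, the largest gains with apicidin were at Arrb2, Rara and Junb. Arrb2, encoding the receptor adaptor beta-arrestin, rose by 1.07 ± 0.09 with apicidin (adjusted p = 3.83e-30) and by 0.45 ± 0.09 with GSI (adjusted p = 5.60e-05) in the authors' deposited table. Rara, a retinoic acid receptor, rose by 0.95 ± 0.09 (adjusted p = 1.25e-24) and Junb, an AP-1 subunit, by 0.76 ± 0.09 (adjusted p = 8.44e-15) with apicidin in the authors' deposited table; neither was called with GSI. Dgka, a diacylglycerol kinase that dampens T-cell receptor signals, rose by 0.66 ± 0.09, the adaptor gene Grb2 by 0.59 ± 0.06, Fam134c by 0.57 ± 0.11 and Itpr2, an inositol trisphosphate receptor, by 0.54 ± 0.05 in the authors' deposited table. All 4 had an adjusted p between 3.33e-23 and 2.02e-06.

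**Figure D3:**
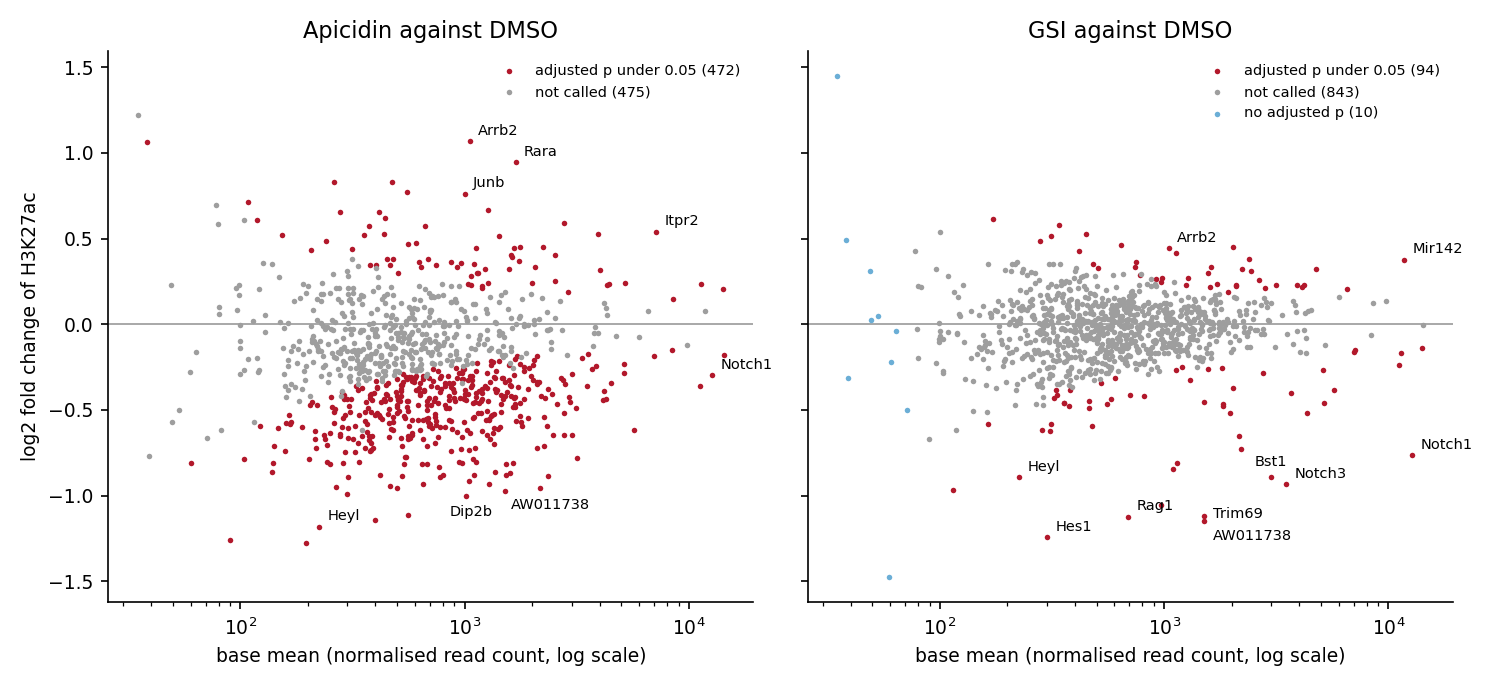
Log2 fold change of H3K27ac against DMSO (vertical axis) by base mean (horizontal axis, log scale) for the 947 RBPJ-overlapping promoters, under apicidin (left, 472 called) and GSI (right, 94 called, 843 not called, 10 with no adjusted p). Red points have an adjusted p under 0.05, grey points are not called and blue points are untested; red points lie mostly below 0 under apicidin, and under GSI the lowest red points include Hes1, AW011738, Rag1 and Trim69.

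Promoters of pre-mRNA splicing factors were lower with apicidin. All 8 members of 54 promoter regions on that list were lower in the authors' deposited table (median log2 fold change -0.42), beside 42.4% of all members and 14.1 percent of all regions, and 5 of the 8 were lower under each rescaling. Hnrnph3 fell by 0.81 (SE 0.09, adjusted p = 1.66e-18), Srsf7 by 0.54 (SE 0.09, adjusted p = 3.47e-08) and Srsf2 by 0.46 (SE 0.07, adjusted p = 4.84e-09) in the authors' deposited table. With GSI none of the 8 was called by the authors' DESeq2 test, 0 had an unadjusted p under 0.05, and the median was -0.05 in the deposited table. The 46 splicing promoters without RBPJ had 23 lower and 1 higher with apicidin, with a median of -0.34.

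Other housekeeping groups were mixed. Their apicidin losses stand beside 402 of all 947 members, 38.9 percent of promoters without RBPJ and 14.1 percent of all regions. Their gains stand beside 70 of 947 members, 8.1 percent and 9.69 percent. Of 9 ubiquitin-conjugating and ubiquitin protease genes 4 were lower with apicidin, led by Ube2s, which works with the anaphase-promoting complex and has -0.71 ± 0.07 (adjusted p = 5.80e-22) in the authors' deposited table; 2 or fewer were lower under each rescaling. RNA helicase genes had 3 of 5 lower, and the authors' deposited table lists Ddx5 among them at -0.59 ± 0.07 (adjusted p = 1.14e-14). Of 6 cell-cycle genes Ccna2, the S- and G2-phase cyclin, fell by 0.81 (SE 0.10, adjusted p = 3.74e-13) and E2f3 by 0.25 (adjusted p = 0.0190) in the authors' deposited table, the second call being lost under both rescalings, where 1 of the 6 was lower and 2 were higher. Cytosolic ribosomal protein genes had 1 of 6 lower, chaperone genes 1 of 8 higher, and Zfp zinc finger genes 5 lower and 1 higher of 19. Mitochondrial ribosomal protein genes had 2 of 4 lower, respiratory chain genes 1 lower and 1 higher of 4, and proteasome genes 1 lower and 1 higher of 3. Translation factor genes had 2 of 6 lower, aminoacyl-tRNA synthetase genes 1 lower and 1 higher of 4, polymerase and Mediator genes 2 lower and 1 higher of 5, and microRNA and small nucleolar RNA genes 2 lower and 2 higher of 13. Under both rescalings mitochondrial ribosomal protein genes had 1 lower, respiratory chain genes 2 higher, proteasome genes 2 higher and 1 lower, and translation factor genes 1 higher and 1 lower. Under the same rescalings Zfp genes had 3 lower, RNA helicase genes 2 lower, and microRNA and small nucleolar RNA genes 2 lower and 4 (centred) or 5 (trend subtracted) higher. None of the 20 promoter regions of replication-dependent histone genes overlapped RBPJ, beside 12% of all promoter regions. The GSI counts of these groups were 1 or 0 in each direction.

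With GSI the largest losses, among members of at least median base mean, were partly at genes outside the Notch lists. After AW011738 and Rag1, Trim69, a ubiquitin ligase family member, fell by 1.12 (SE 0.08, adjusted p = 2.69e-41) and had -0.18 ± 0.07 with apicidin (adjusted p = 0.0570) in the authors' deposited table. Gm10007, a predicted gene, fell by 1.05 with GSI (SE 0.10, adjusted p = 2.92e-23) and rose by 0.36 ± 0.09 with apicidin (adjusted p = 7.14e-04) in the authors' deposited table. Bst1, a surface enzyme of stromal and immune cells that acts on NAD, fell by 0.89 with GSI (adjusted p = 2.04e-39) and by 0.64 with apicidin (adjusted p = 3.66e-22) in the authors' deposited table. Fjx1 fell by 0.84 and the threonine aldolase gene Tha1 by 0.81 with GSI in the authors' deposited table (adjusted p = 1.35e-13 and 1.56e-15).

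Members with a GTGGGAA match before the start were called in both directions with GSI, and 85 of 673 uncalled genes also had a match. Among the other GSI-lowered members with a printed sequence, Socs1, an inhibitor of cytokine receptor signalling, fell by 0.47 with GSI (SE 0.08, adjusted p = 1.07e-06) and had -0.01 ± 0.08 with apicidin in the authors' deposited table. Zfpm1, a GATA cofactor, fell by 0.46 with GSI (SE 0.09, adjusted p = 6.44e-06) and had 0.19 ± 0.08 with apicidin (adjusted p = 0.0914) in the authors' deposited table. Tfam, which packages and transcribes mitochondrial DNA, fell by 0.48 with GSI (SE 0.14, adjusted p = 0.00714), and the chromatin remodeller Chd9 by 0.43 (SE 0.15, adjusted p = 0.0386) in the authors' deposited table. In the same table Coq10b, also with a match, rose with GSI by 0.43 (adjusted p = 0.0231) and Cs by 0.25 (adjusted p = 0.0497). Thrap3 rose by 0.22 (adjusted p = 0.0396) and Lig4 by 0.19 (adjusted p = 0.0450).

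Gains with GSI were smaller. In the authors' deposited table Nrd1, a metalloprotease gene, rose by 0.46 ± 0.11 (adjusted p = 7.25e-04), Surf4, a cargo receptor of the endoplasmic reticulum, by 0.45 ± 0.07 (adjusted p = 6.05e-08) and Hspa4, a chaperone of the Hsp70 family, by 0.38 ± 0.07 (adjusted p = 4.00e-06). The region at Mir142, a microRNA gene of blood cells, was 18502 bp wide with a base mean of 11726, and it rose by 0.38 ± 0.05 with GSI (adjusted p = 1.24e-12) and had 0.08 ± 0.05 with apicidin (adjusted p = 0.256, passing as higher under both rescalings) in the authors' deposited table. Selk, a selenoprotein of the endoplasmic reticulum, rose by 0.41 ± 0.09 with GSI (adjusted p = 6.58e-05) and fell by 0.43 with apicidin (SE 0.09, adjusted p = 1.80e-05) in the authors' deposited table.

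The inhibitors were also set against each other by the difference of their log2 fold changes, apicidin minus GSI. Both fold changes use the same DMSO libraries, so the SE of the difference is an upper bound. Members were lower with apicidin than with GSI in 211 cases (22.3%), against 5.6 percent of all regions, and higher in 48 (5.07%), against 3.01 percent. Promoter regions without RBPJ had 21.7 percent lower and 3.7 percent higher. Most of the members, 688, did not pass in either direction, and the median difference was -0.21. These counts depend on the processing: with the trend over base mean subtracted 114 were lower and 85 higher, with fold changes centred on the stronger regions 140 were lower, and with a shared DMSO term taken from the SE 352 were lower and 87 higher.

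Members lower with apicidin were led, by the difference over its SE, by a noncoding transcript on an unplaced contig, 4930526I15Rik, at -1.01 ± 0.10 (adjusted p = 1.27e-19), Dip2b at -1.17 ± 0.12 (adjusted p = 7.27e-18), and Dhrsx, also on an unplaced contig, at -1.03 ± 0.11 (adjusted p = 9.88e-18). Dazap2 at -0.93 ± 0.12 and Ubald1 at -0.62 ± 0.08 followed. In the other direction Gm10007 had 1.41 ± 0.13 (adjusted p = 6.23e-22), Tha1 1.11 ± 0.13 (adjusted p = 5.02e-15), Trim69 0.94 ± 0.11 (adjusted p = 6.03e-15) and Itpr2 0.69 ± 0.07 (adjusted p = 1.13e-17). Socs3, a feedback inhibitor of cytokine signalling like Socs1, had a difference of 0.88 ± 0.11 (adjusted p = 1.92e-12), and in the authors' deposited table it had 0.15 ± 0.08 with apicidin, which passed as higher under both rescalings, and -0.73 ± 0.08 with GSI. Gm10007, Tha1 and Itpr2 were called in opposite directions under the 2 inhibitors, higher with apicidin and lower with GSI, the Itpr2 call with GSI being lost at an adjusted p under 0.01 and without the base mean filter.

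Calls varied with the width of the acetylated region. Of the 33 members of at least 10 kb, 14 were lower with GSI (42.4%) and 4 higher (12.1%) in the authors' deposited table, against 24 lower (17.0%) and 29 higher (20.6%) of the 141 promoters of that width without RBPJ. The 14 were Notch1, Notch3, Bst1, Diexf, Carkd, Ccdc134, Jazf1, Klf16, Aff1, Cxxc5, Pgpep1l, Gfi1, Itpr2 and Hdac7, named after their values were seen. The 4 were Myh9, Mnt, Osbpl8 and Mir142. Losses in wide regions were not particular to promoters. RBPJ-overlapping regions off a TSS had 17 of 26 lower with GSI (65.4%) and 4 higher (15.4%) at 10 kb or more. At 5 to 10 kb they had 38 of 64 lower (59.4%) and 7 higher (10.9%). In members of 5 to 10 kb the deposited shares with GSI were 12.6% lower and 11.6% higher, against 10.1% and 18.6% for promoters without RBPJ, and in members under 1.5 kb 2.60% were lower, against 2.23%.

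Gains with apicidin were also more frequent in wider regions. Of members under 1.5 kb 2.15% were higher with apicidin, and of those of at least 10 kb 27.3%, while promoters without RBPJ had 2.95% and 39.7% in the same classes of the authors' deposited table. The share lower with apicidin was 45.5% for members of at least 10 kb, against 24.8% for promoters without RBPJ, and 35.8% against 33.4% under 1.5 kb. Wider regions hold more reads, and the calls rose with base mean too. In members with a base mean of at least 2000, 17 of 89 were lower with GSI (19.1%), against 43 of 392 promoters without RBPJ (11.0%), and below 250 the shares were 2.54% and 2.53%. For apicidin the lower share was 52.8% against 42.6% at a base mean of at least 2000 and 21.1% against 22.7% below 250. RBPJ-overlapping regions off a TSS with a base mean of at least 2000 had 38 of 60 lower with GSI (63.3%). The part of read depth in these orders was not tested.

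**Figure D4:**
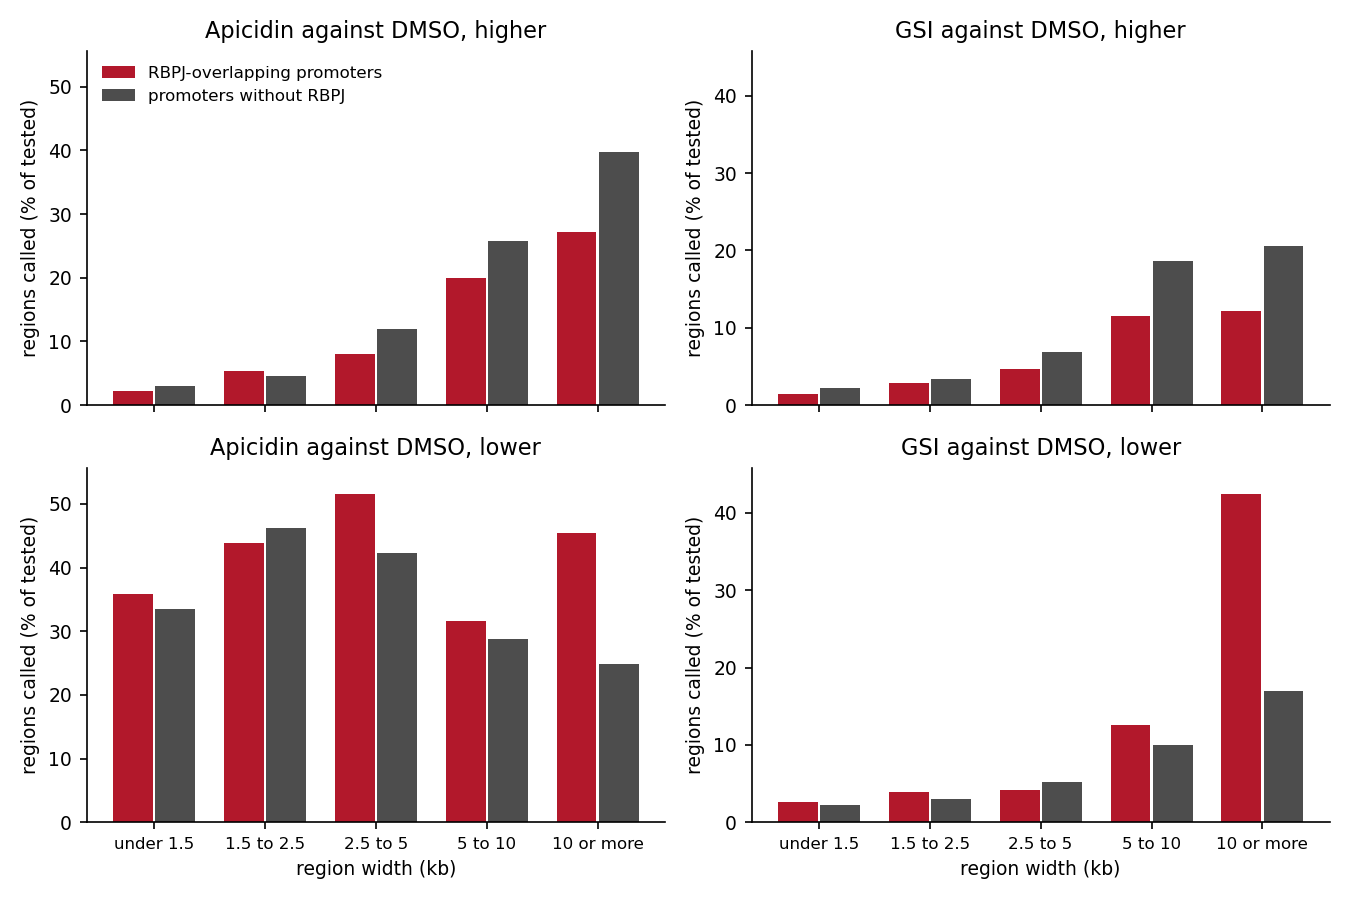
Share of regions called higher (top) or lower (bottom) at an adjusted p under 0.05 (vertical axis, % of tested) by region width in kb (horizontal axis) for RBPJ-overlapping promoters (red) and promoters without RBPJ (grey), under apicidin (left) and GSI (right). The widest class holds 33 and 141 regions, and its red bar for losses with GSI stands at 42.4%, against 17.0% for promoters without RBPJ.

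The 5 members of highest base mean all lay under regions of over 10 kb. Rhoh, a blood-restricted GTPase gene, had the highest base mean, 14330, and a log2 fold change of -0.18 ± 0.05 with apicidin (adjusted p = 0.00129), a call lost under both rescalings, and -0.01 ± 0.05 with GSI in the authors' deposited table. Hdac7, Notch1, Mir142 and Pgpep1l came next, and Cxxc5, a CXXC zinc finger gene, was among the 5 widest, with -0.36 ± 0.06 with apicidin (adjusted p = 5.40e-09) and -0.24 ± 0.06 with GSI (adjusted p = 4.91e-04) in the authors' deposited table. Pgpep1l had 0.24 ± 0.05 with apicidin (adjusted p = 2.48e-05) and -0.17 ± 0.05 with GSI (adjusted p = 0.00777) in the authors' deposited table.

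Regions elsewhere at the same genes were measured separately from the promoters. Genes whose member promoter fell with GSI had 283 other tested regions, of which 65 were lower (23.0%) and 3 higher in the authors' deposited table. Genes whose member rose with GSI had 79 such regions, with 10 higher (12.7%) and 1 lower, and genes of members not called had 1326, with 85 lower (6.41%) and 76 higher (5.73%). Of all regions tested with GSI, 7.17 percent were lower and 6.62 percent higher. For apicidin the deposited table gave less contrast, beside 14.1 percent lower and 9.69 percent higher of all regions. Of regions off a TSS without RBPJ 9.8% were lower and 9.9% higher with apicidin. Genes of lower members had 1959 other regions, with 215 lower (11.0%) and 102 higher, genes of higher members 567, with 78 higher (13.8%) and 40 lower, and genes of uncalled members 2153, with 171 lower (7.94%) and 187 higher (8.69%). These regions share libraries and often a locus with the promoter, so they are not independent replicates.

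RBPJ overlap was spread unevenly over chromosomes. On chromosome 15, 82 of 351 promoter regions overlapped RBPJ (23.4%), against 865 of 7538 on all other chromosomes and contigs (11.5%). Chromosome 10 came next, with 60 of 374 (16.0%), and chromosome 13 had the lowest share, 21 of 308 (6.82%). The excess on chromosome 15 appeared in every base mean class, from 17.0% against 6.17% elsewhere below 250 to 24.1% against 17.8% at 2000 or more, and in every 20 Mb stretch of the chromosome, with shares of 19.8% to 29.0%. Promoter regions without RBPJ on chromosome 15 also had the highest median base mean of any chromosome with at least 100 promoter regions, 650, against 278 to 571 on the others. DNA copy number was not measured here, and its part in the excess was not tested. Fold changes of the chromosome 15 members were near those of all members in the authors' deposited table, with medians of -0.16 for apicidin and -0.01 for GSI. On the X chromosome, which had 15 members, the median with apicidin was -0.50 in the authors' deposited table.

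**Figure D5:**
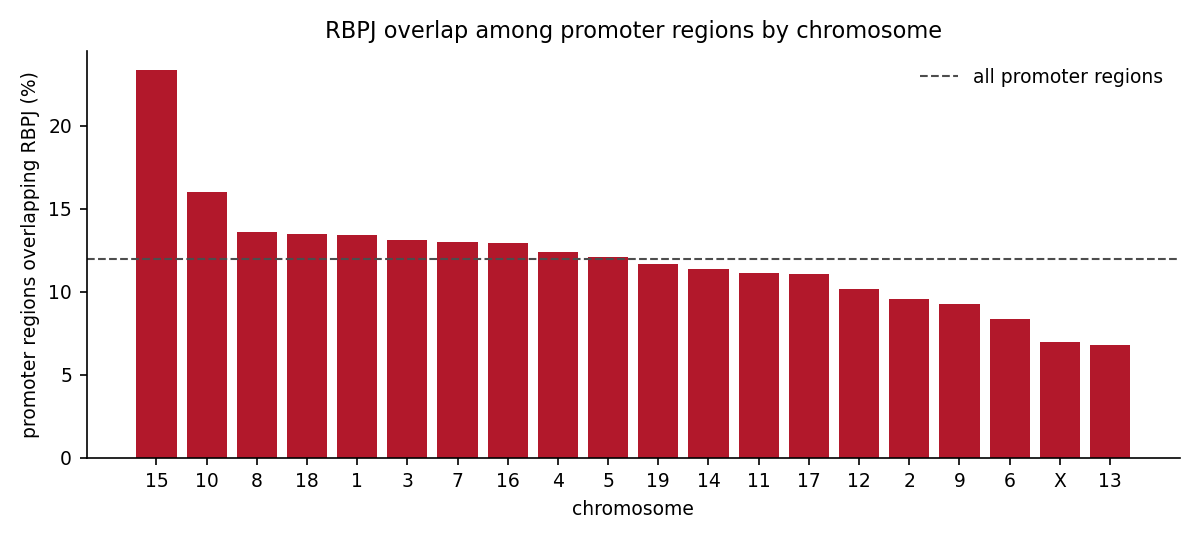
Share of promoter H3K27ac regions that overlap RBPJ (vertical axis, %) on each chromosome with at least 100 promoter regions (horizontal axis, ordered by share), with the share over all promoter regions, 12.0%, as a dashed line. Chromosome 15 stands at 23.4% and the next, chromosome 10, at 16.0%.

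The 3 RBPJ-overlapping regions nearest outside it, Orc4 at 1 bp from a TSS, Esco2 at 2 bp and Yipf5 at 2 bp, were called with neither inhibitor in the authors' deposited table, at 0.05 ± 0.14, -0.37 ± 0.16 and 0.21 ± 0.15 with apicidin and -0.07 ± 0.15, 0.05 ± 0.16 and 0.06 ± 0.15 with GSI. Gfod2, Ei24, Tnip2, Atg14, Ddhd2, Fbxo10, Tpmt, Bcs1l, 1110058L19Rik and 6430548M08Rik are the 10 members with no GSI adjusted p, all below the base mean of 72.1 from which one was given. Of the members, 30 neighbouring pairs lay under 10000 bp apart, so not all members are separate loci.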

How the data were processed

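H3K27ac, RBPJ and input chromatin of Beko cells was sequenced in 11 libraries. Build mm9 and the tools deepTools, SAMtools, Bowtie2 and FastQC, with no versions, are listed in the submitters' processing notes. What called the regions, what counted reads, the DESeq2 version, the use of inputs and the least RBPJ overlap: not given in the sources used here. Per the file headers, the authors' deposited table is DESeq2 output: a base mean (a signal, the mean normalised count), log2 fold changes with SE, a Wald score, p-values and Benjamini-Hochberg adjusted p-values. It holds no counts per library, so depth is unknown, precision is carried by the SE (median 0.114 for apicidin and 0.117 for GSI over members), and the edgeR fit planned for counts was not made: the authors' calls at an adjusted p under 0.05 were used. Benjamini-Hochberg adjustment run again on the p-values matched the table within 1.03e-06. The deposited RBPJ mark and distance to TSS chose the members.

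In place of a direct contrast of the inhibitors, the apicidin minus the GSI log2 fold change was divided by the root of the summed squares of their SEs, and its two-sided normal p was adjusted over all 56342 regions; this was tested on simulated data. Rescalings centred fold changes on regions of at least median base mean, or subtracted a running median over 2001 regions ordered by base mean. Named members were, at or above the members' median base mean, the 8 largest decreases and increases per inhibitor and the 5 largest differences each way, further the 5 strongest and 5 widest, members of fixed gene lists and the 3 regions nearest outside the rule; members with a printed sequence match and the wide GSI-called members were added after their values were seen. Some members that the rule names are not reported here. The members and lists were chosen with earlier results of these data known. Alternatives were a stricter threshold, other filters, rescalings and other member rules. Python 3.11.15, numpy 2.4.6, scipy 1.17.1, pandas 2.3.3 and matplotlib 3.10.9 were used.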

Additional observations from a re-analysis of the deposited data

How the results depend on the processing

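The median fold changes over all members kept their sign under each alternative run, and no call of a named member turned to the other direction. Uncalled values near 0 did change sign with apicidin when the trend over base mean was subtracted, among them Rbpj, Spen, Mib2, Rbbp4 and Sin3a, and the list medians of the deacetylase and cell-cycle genes turned to 0.03 and 0.14. Counts moved by over 1.5 times in these cases. Members higher with apicidin numbered 70, and 108 with fold changes centred on the stronger regions (a shift of -0.0991 for apicidin) and 118 with the trend over base mean subtracted. Members lower with apicidin numbered 402, and 253 with the trend subtracted, where the members' median log2 fold change was -0.0993, against -0.23. Members higher with GSI numbered 39, and 21 at an adjusted p under 0.01. Members higher with apicidin than with GSI numbered 48, and 85 with the trend subtracted and 87 with a shared DMSO term taken from the SE. Members lower with apicidin than with GSI numbered 211, and 140 centred, 114 with the trend subtracted and 352 with the shared term taken off. The cause of the changes under rescaling was not tested. Leaving out chromosome 15, chosen after seeing the data, moved no count by over 1.5 times. Of 118 named members, 15 lost and 7 gained an apicidin call when centred, and 18 lost and 8 gained one with the trend subtracted. GSI calls lost were 5 at an adjusted p under 0.01, 2 without the base mean filter (Itpr2 and Uqcrc2) and 1 under each rescaling (Uqcrc2).

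No paired analysis was possible because the deposited table holds no value per library. For the same reason leaving out each replicate, a replicate block and edgeR's TMM against DESeq2's size factors were not run. The depth of the libraries is unknown, and 10 members of low base mean had no GSI test. All p-values rest on 2 libraries a group.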
